A study of Homo sapiens with 24 samples.

Results

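The 10 integrin chains described here are ITGAM, ITGB2, ITGA2, ITGA3, ITGA5, ITGA6, ITGAV, ITGB1, ITGB4 and ITGB6, taken by gene name from the 60623 genes of the count table and followed through all 8 groups of the study. The set was chosen from measured TNFα responses: it includes ITGAM, a chain of myeloid cells, because its RNA was higher with TNFα. The levels of the members with and without TNFα are therefore a description with no test, and only the effects of genotype, of 7FTA and of their combinations were tested. Of the 10 members, 9 passed the filter on low counts. ITGA5 did not. ITGAM passed only through the TNFα groups, and ITGB2 only through 3 libraries treated with 7FTA.

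The cells were HT-29, an established human colon cancer line of epithelial cells, either wild type (WT) or with a knockout of GPRC5A (KO), an orphan G protein-coupled receptor. Cells of each genotype were kept for 8 h in OMEM medium with 0.1% DMSO, with 50 µM 7-fluorotryptamine (7FTA, a tryptamine with a fluorine atom), with 10 ng/mL of the inflammatory cytokine TNFα, or with TNFα and 7FTA together. Each of the 8 groups had 3 libraries of poly(A)-selected RNA, 24 in all. Vehicle is named in the labels for the DMSO groups alone, so whether the other groups held it is not known, and vehicle and agent cannot be told apart. The labels do not say how the knockout was made or how many clones it comprises, and do not say whether the 3 libraries of a group came from separate cultures. The p-values then measure only the spread between these libraries, which may be technical.

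Integrins are cell surface receptors built from 1 α and 1 β chain, and a chain reaches the surface only after pairing. β1 pairs with many α chains, among them α2, a collagen receptor, and α3 and α6, which are laminin receptors. β4 pairs with α6 alone and anchors epithelial cells to laminin in hemidesmosomes. αv pairs with several β chains, among them β1, β5, β6 and β8, and binds matrix proteins that carry an RGD motif. The integrins αvβ6 and αvβ8 release active TGFβ from its latent complex. αM (CD11b) and β2 (CD18) form the receptor by which neutrophils and macrophages bind complement fragments, fibrinogen and ICAM1. In the intestine α6β4, α3β1 and α2β1 are the usual integrins of the epithelium, whereas αMβ2 belongs to leukocytes.

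The promoters of 3 members are shown because the results turn on them: ITGAM and ITGAV differed the most between TNFα and DMSO, and of the well expressed chains ITGA2 differed the most between genotypes. The sequences are the bases just before the gene's start, plus strand, from RefSeq on GRCh38.p14. Capitals mark GC boxes (GGGCGG, or CCGCCC where it lies on the other strand), the core of the site bound by Sp1.
ITGAM: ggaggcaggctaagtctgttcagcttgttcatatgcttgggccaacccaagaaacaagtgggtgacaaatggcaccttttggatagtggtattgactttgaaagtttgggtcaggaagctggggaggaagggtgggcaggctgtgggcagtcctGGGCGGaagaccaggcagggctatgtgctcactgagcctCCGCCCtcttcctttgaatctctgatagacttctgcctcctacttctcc
ITGAV: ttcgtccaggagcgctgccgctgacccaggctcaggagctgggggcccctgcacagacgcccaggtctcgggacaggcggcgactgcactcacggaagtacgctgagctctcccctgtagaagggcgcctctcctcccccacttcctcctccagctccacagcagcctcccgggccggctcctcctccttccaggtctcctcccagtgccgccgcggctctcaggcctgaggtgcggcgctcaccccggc
ITGA2: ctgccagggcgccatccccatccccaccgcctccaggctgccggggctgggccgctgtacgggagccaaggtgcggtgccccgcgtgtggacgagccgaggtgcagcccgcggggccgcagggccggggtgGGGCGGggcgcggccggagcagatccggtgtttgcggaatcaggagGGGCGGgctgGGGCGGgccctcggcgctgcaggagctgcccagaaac
They lie at chr16:31259725-31259966, chr2:186589806-186590055 and chr5:52989102-52989325. Promoters of 7 of the 10 members were found in the table of RefSeq promoters. The stretch of ITGAM held 2 GC boxes, that of ITGA2 held 3 (the fourth lies in bases next to the start that are not shown), and that of ITGAV held none. In the windows of ITGAM, ITGAV and ITGA2, searched on both strands from 250 bases upstream to the start, neither the NF-κB motif nor the AP-1 motif TGANTCA was found. Of the other windows searched, 1 each of ITGB1, ITGA5 and ITGB8 (no member) held the NF-κB motif. Those of ITGB6, ITGA6 and ITGB7 (no member) did not. Of all 35116 promoter windows of that length, 9.96% held the NF-κB motif, 6.57% the AP-1 motif and 42.6% a GC box. A match of letters is a description and not a binding site, and no match says only that these letters are not in this window.

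Libraries held 16782857 to 27247407 counts, so that 3 counts, the upper limit of the expected count where 0 are observed, correspond to 0.105 to 0.185 CPM (counts scaled to the library's size). GPRC5A checked the labels: its mean was 207 to 245 CPM over the 4 WT groups and 67.0 to 77.9 CPM over the 4 KO groups, and each KO library lay below each WT library. The KO cells kept a fold of 0.337 of the WT level of this RNA with DMSO. The epithelial identity of HT-29 held in the data, since the 8 epithelial markers summed to 15176 to 17172 CPM in the KO libraries and 18053 to 20636 CPM in the WT libraries, and the genotypes did not overlap. Of 22 leukocyte markers, LYZ and CD14 were well expressed, with 819205 and 2427 counts over all libraries, and the other 20 together had 8 to 32 counts per library in 21 libraries. WT 7FTA replicate 3, KO 7FTA replicate 2 and KO 7FTA replicate 3 had the most, 48, 37 and 36 counts. Stromal markers summed to 1.52 to 3.67 CPM. Of the 22 leukocyte markers, FCGR1A, ELANE and S100A12 were at 0 counts in every library. Others were detected at low counts: LAPTM5 had 226 counts over 24 libraries, CD33 56 over 23, MPO 23 over 13 and PTPRC 19 over 9. A set of fewer cells that express a gene and less RNA per cell cannot be told apart in such bulk libraries.

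Per kilobase of exon, the epithelial laminin and collagen receptor chains dominated and the leukocyte chains lay at the bottom. With DMSO, WT cells held ITGB1 at 74.1 ± 1.43 CPM per kb (SD, n = 3), ITGA6 at 66.3 ± 2.49, ITGB4 at 47.3 ± 2.48 and ITGA3 at 32.6 ± 1.04 CPM per kb. ITGA2 followed at 21.2 ± 1.92 CPM per kb, ITGAV at 14.3 ± 0.877 and ITGB6 at 3.62 ± 0.193, with ITGAM at 0.0545, ITGB2 at 0.00550 and ITGA5 at 0 CPM per kb. No neighbours from ITGB1 down to ITGAM overlapped between libraries in this order. In KO cells with DMSO, ITGB4 (68.2 ± 1.89 CPM per kb) stood above ITGA6 (56.0 ± 0.489) and ITGAV (11.8 ± 0.104) above ITGA2 (9.17 ± 0.325), again with no overlap, while ITGAM and ITGB2 overlapped. With TNFα, ITGAV came after ITGB1, ITGA6 and ITGB4 in both genotypes, at 45.1 ± 0.794 CPM per kb in WT cells and 36.3 ± 1.32 in KO cells. The order depends on the length used: over coding exons alone the KO DMSO levels were 105 CPM per kb for ITGA6, 88.2 for ITGA3 and 80.7 for ITGB4, so that ITGB4 came after ITGA3. With TNFα, ITGAV then stood above ITGB4, at 115 against 58.6 CPM per kb in WT cells and 92.7 against 73.2 in KO cells.

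ITGAM (chromosome 16, 31259967 to 31332892, plus strand, GRCh38) went from a handful of counts to well over 100 per library with TNFα. Without TNFα it had 10, 3 and 10 counts in the WT DMSO libraries and 13, 4 and 11 in the WT 7FTA libraries. In KO cells it had 1, 3 and 3 counts with DMSO and 8, 12 and 9 with 7FTA. With TNFα it had 141, 159 and 136 counts in WT cells and 183, 132 and 206 in KO cells. With TNFα and 7FTA it had 148, 188 and 182 counts in WT cells and 219, 189 and 195 in KO cells. The 12 libraries with TNFα were thus all above the 12 without it. The depth-scaled ratio of TNFα to DMSO, with an interval for counting error only, was 26.1 (95% interval 17.2 to 41.7) in WT cells and 78.9 (95% interval 38.0 to 197) in KO cells. The wide interval in KO cells rests on 7 counts in the 3 DMSO libraries. Under 7FTA the ratios were 21.2 (95% interval 14.5 to 32.3) and 24.1 (95% interval 16.6 to 36.3). In CPM the mean went from 0.310 ± 0.132 to 8.49 ± 0.216 in WT cells (SD, n = 3) and from 0.108 ± 0.0509 to 8.60 ± 0.702 in KO cells, and ITGAM lay below the epithelial chains, at 1.49 CPM per kb against 4.50 for ITGB6 in WT cells with TNFα. Its highest mean, in WT cells with both agents, was 1.66 CPM per kb against 5.07 for ITGB6.

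**Figure D1:**
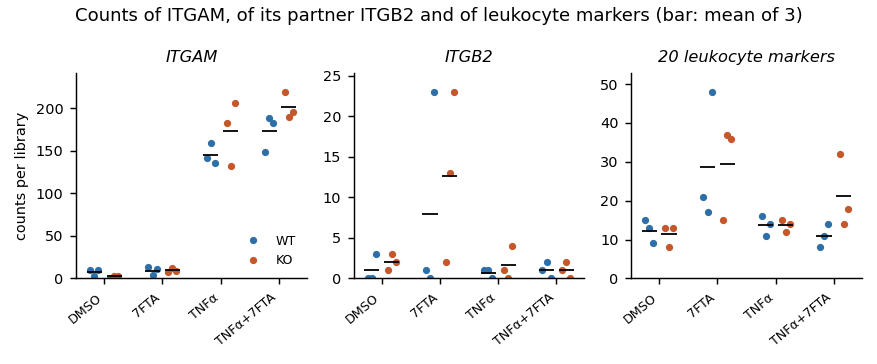
Counts per library (vertical axis, from 0) of ITGAM, of ITGB2 and of 20 leukocyte markers summed (all but LYZ and CD14), by treatment (horizontal axis) in WT and KO cells, with each point 1 library and each bar the mean of 3. ITGAM is high in the 12 libraries with TNFα, while ITGB2 and the markers are highest in the same 3 libraries with 7FTA alone.

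ITGB2 (chromosome 21, 44885953 to 44931989, minus strand), the only β chain known to pair with αM, did not follow. It had at most 4 counts in 21 libraries, and 1, 1 and 0 counts in WT and 1, 0 and 4 in KO libraries with TNFα, which are too few to give a level. WT 7FTA replicate 3 held 23 counts, and KO 7FTA replicates 2 and 3 held 13 and 23. These are the 3 libraries with the most leukocyte marker counts, LYZ and CD14 aside. Scaled to library size, KO TNFα+7FTA replicate 1 (1.32 CPM) lay between KO 7FTA replicates 2 (1.35) and 3 (1.26). It held 1 ITGB2 count, and LAPTM5 was highest there, at 27 counts. TYROBP reached 11 counts in KO 7FTA replicate 2 and was found in 2 libraries. CD53 reached 8 and SPI1 4 counts in WT 7FTA replicate 3, the only library with SPI1. The part of leukocyte marker RNA in the ITGB2 counts was not tested. The fitted changes of ITGB2 are given with no p-value. They rest on the 3 libraries of most ITGB2 counts, which also let ITGB2 pass the filter. KO against WT under 7FTA was 0.34 ± 0.76 (SE) on the log2 scale, and 3.96 without WT 7FTA replicate 3. The neighbours of ITGAM on the same chromosome did not share its counts. ITGAX, the next α chain that pairs with β2, summed to at most 15 counts in a group and to 2 and 1 in the TNFα groups of WT and KO cells, and ITGAD had 0 counts in all 24 libraries. ITGA5 (chromosome 12, 54395261 to 54419460, minus strand), the fibronectin receptor α5, had 0 to 3 counts per library, too few to give a level.

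Among the epithelial members, ITGAV differed the most between TNFα and its controls. ITGAV (chromosome 2, 186590065 to 186680901, plus strand) was at 119, 109 and 124 CPM in the WT DMSO libraries and at 368, 364 and 377 CPM with TNFα. KO cells held 97.6, 96.0 and 96.3 CPM with DMSO and 288, 309 and 298 CPM with TNFα. Libraries with 7FTA alone had 117, 121 and 118 CPM in WT and 89.5, 96.5 and 99.0 CPM in KO cells, and those with both agents 363, 328 and 333 and 296, 299 and 278 CPM. Every library with TNFα was above every library without it. The fitted log2 difference was 1.65 in WT cells and 1.62 in KO cells, a fold of 3.15 and 3.08. The α2 chain ITGA2 had log2 differences of 0.52 in WT and 0.53 in KO cells, the α6 chain ITGA6 0.35 and 0.37, and the β6 chain ITGB6 0.31 and 0.59. ITGB1 had 0.30 and 0.13. In ITGA2, ITGA6, ITGB6 and ITGB1 the TNFα and DMSO libraries of a genotype did not overlap. The share of all genes with no such overlap was not computed, and the set was chosen from TNFα responses. ITGA3 (0.08 and -0.08) and, in WT cells, ITGB4 (0.07) overlapped, and ITGB4 in KO cells was at -0.14 with no overlap. By the test, which is another measure than overlap, 38.4% of all 14059 tested genes were called for TNFα against DMSO in WT and 30.9% in KO cells.

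**Figure D2:**
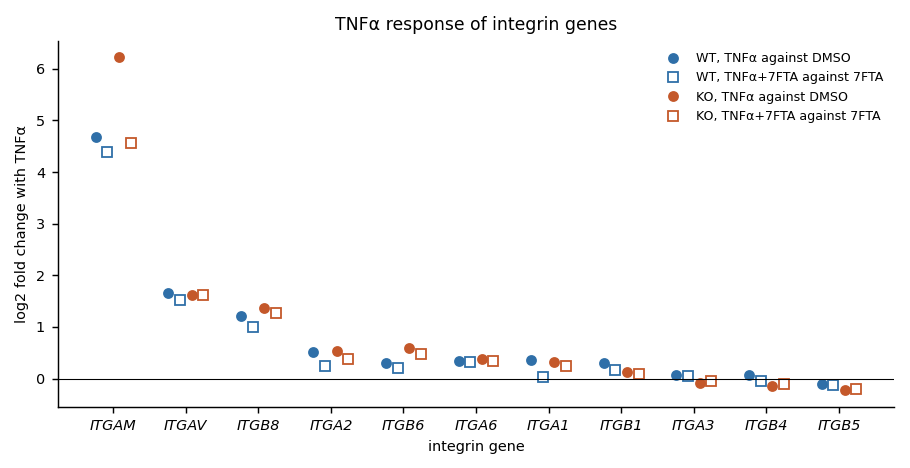
Fitted log2 fold change with TNFα (vertical axis) of 7 epithelial members, ITGAM, ITGB8, ITGA1 and ITGB5, with each point 1 comparison in WT or KO cells, without 7FTA (filled circles) or under 7FTA (open squares). ITGAM is highest at 4.40 to 6.22, ITGAV follows near 1.62, and ITGA3, ITGB4 and ITGB5 lie near 0 or below.

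The β partners of αv did not move together with TNFα. ITGB8, which is no member, had its fitted log2 change at 1.21 ± 0.07 (SE), adjusted p = 1.79e-19 in WT cells and 1.37 ± 0.07 (SE), adjusted p = 4.71e-21 in KO cells (edgeR's quasi-likelihood test with Benjamini-Hochberg adjustment, used throughout), from 16.9 ± 0.183 to 39.2 ± 3.79 CPM in WT cells. ITGB5 fell by 0.11 ± 0.04 in WT cells (adjusted p = 0.0152, lost when any of WT DMSO replicates 1 and 2 or WT TNFα replicate 2 was left out) and by 0.22 ± 0.04 in KO cells (adjusted p = 5.9e-06). Per kilobase ITGB5 was the most abundant αv partner other than ITGB1, at 55.8 CPM per kb in WT cells with TNFα against 4.50 for ITGB6 and 2.58 for ITGB8. Over coding exons alone the order of the last 2 turned, with ITGB8 at 17.0 and ITGB6 at 8.92 CPM per kb.

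Ligands of these integrins went in both directions with TNFα, where 38.4% of all genes were called in WT and 30.9% in KO cells; the shares of the matrix ligands called are near that background. In WT cells, 4 of 8 tested laminin chains rose and 2 fell (median log2 0.42, against -0.01 over all genes). Among those that rose were LAMA3 at 1.65 ± 0.06 and LAMB3 at 1.05 ± 0.04 (SE). In KO cells 4 rose and 1 fell, with LAMA3 at 1.27 ± 0.06 and LAMB3 at 0.88 ± 0.04. Of 4 tested hemidesmosome partners of α6β4, 2 rose in WT cells and 1 in KO cells, led by the hemidesmosomal collagen COL17A1 at 0.79 ± 0.04 and 0.79 ± 0.04. Of 7 tested ligands of leukocyte integrins, 3 rose and 1 fell in WT cells, and 4 rose in KO cells. ICAM1, the adhesion molecule that αMβ2 binds, went from 3.82 ± 0.201 to 99.6 ± 2.18 CPM in WT cells. Its KO levels were 3.28 ± 0.266 CPM with DMSO and 73.1 ± 1.58 CPM with TNFα (log2 changes 4.70 and 4.48). Complement C3, whose fragment iC3b is a ligand of αMβ2, went from 0.0601 ± 0.0543 to 3.34 ± 0.794 CPM in WT cells and stayed a low gene. Of 14 tested matrix ligands and latent TGFβ genes, 4 rose and 2 fell in WT cells, TGFB1 among the former at 0.38 ± 0.04, and 2 rose and 2 fell in KO cells.

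Knockout of GPRC5A went with a lower level of the collagen receptor chain ITGA2 and a higher level of the hemidesmosomal chain ITGB4 under each of the 4 treatments. The summed CPM of the 8 epithelial markers, given above, was also lower in every KO library. Gene by gene the markers went both ways. With DMSO, 4 of the 8 rose and 3 fell by the test (KO against WT, median log2 0.13). Under 7FTA it was 5 and 3 (median 0.14), with TNFα 3 and 3 (median -0.03), and with both agents 2 and 3 (median 0.04). The part of these markers in the differences of ITGA2 and ITGB4 was not tested. With DMSO, 1 member was higher and 4 were lower in KO cells out of 9 tested; 48.1% of all genes were called in this comparison, so that 55.6% of the members is near the background. It was the same share under 7FTA, and 77.8% with TNFα and with both agents. Under 7FTA 2 members were higher and 3 lower (background 49.5%). With TNFα 2 were higher and 5 lower (background 50.6%), and with both agents 2 and 5 (background 51.9%). The median log2 change of the tested members was -0.06, -0.06, -0.16 and -0.16 in that order, against 0.01 over all genes with DMSO; ITGAM and ITGB2 are among the 9 although they passed the filter only through some groups.

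**Figure D3:**
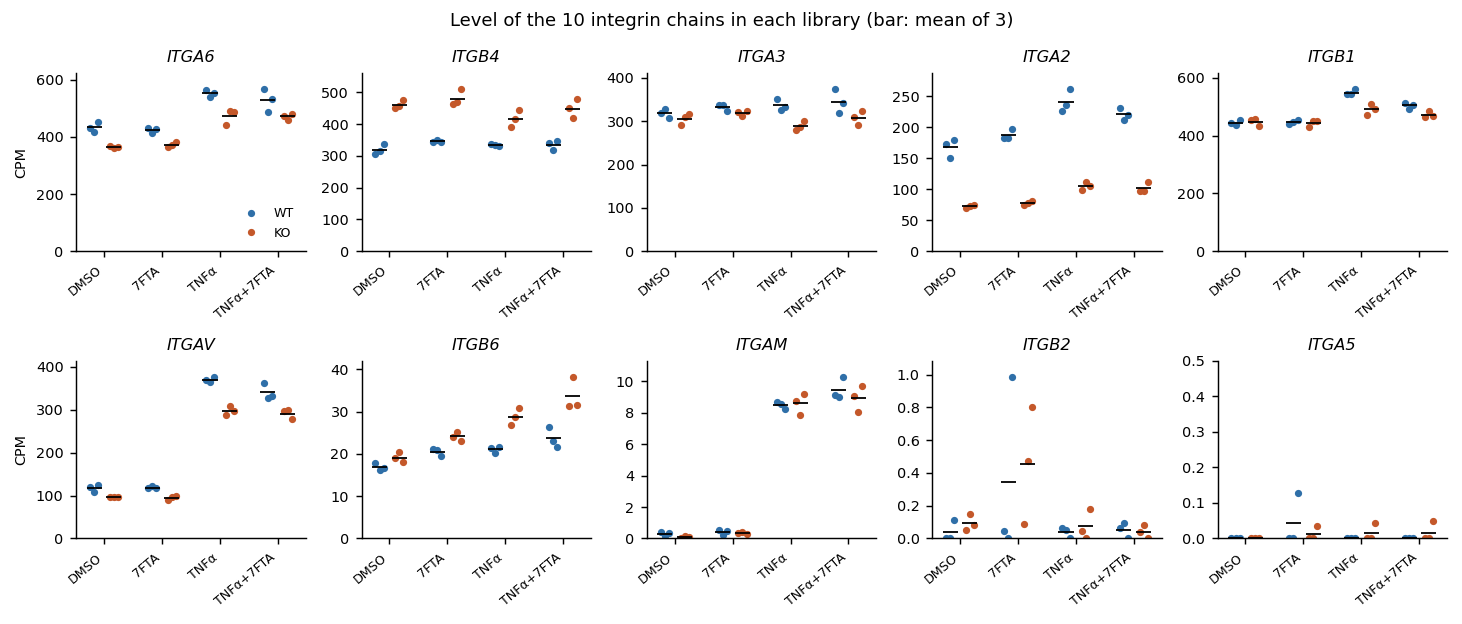
CPM (vertical axis, from 0, on a scale of its own for each gene) of the 10 integrin chains by treatment (horizontal axis) in WT and KO cells, with each point 1 library and each bar the mean of 3. ITGA2 is lower and ITGB4 higher in every KO library, and ITGAV and ITGAM are higher in every library with TNFα.

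ITGA2 (chromosome 5, 52989326 to 53094779, plus strand) showed the largest difference between genotypes among the well expressed members. With DMSO it was at 173, 151 and 179 CPM in WT and 69.9, 72.6 and 75.0 CPM in KO libraries. With 7FTA it was at 182, 183 and 197 CPM in WT and 75.1, 77.9 and 81.5 CPM in KO libraries. With TNFα the values were 226, 236 and 261 and 98.8, 112 and 105 CPM, and with both agents 231, 211 and 220.2 and 97.8, 96.9 and 111 CPM. Every KO library was below every WT library, and KO cells with TNFα did not reach WT cells without it. The log2 change was -1.21 ± 0.07 (SE), adjusted p = 1.79e-11, with DMSO, a 2.32-fold lower level. It was -1.26 ± 0.07 under 7FTA, -1.20 ± 0.07 with TNFα and -1.12 ± 0.07 with both, each called.

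The chains of α6β4 went in opposite directions. ITGB4 (chromosome 17, 75721328 to 75757818, plus strand) was at 306, 315 and 339 CPM in WT and 450.0, 458 and 475 CPM in KO libraries with DMSO. With 7FTA it was at 344, 351 and 344 and 464, 469 and 509.6 CPM, with TNFα at 339, 335 and 330.2 and 392, 416 and 446 CPM, and with both agents at 342, 318 and 348 and 450.0, 419 and 479.9 CPM. The groups did not overlap under any treatment. Its log2 change was 0.53 ± 0.05 (SE), adjusted p = 8.11e-10, with DMSO, 0.47 ± 0.05 under 7FTA, 0.32 ± 0.05 with TNFα and 0.42 ± 0.05 with both. ITGA6 (chromosome 2, 172427354 to 172506282, plus strand) was lower in KO cells: 431, 418 and 451 CPM in WT against 369, 362 and 366 CPM in KO libraries with DMSO, -0.25 ± 0.04 (SE), adjusted p = 1.51e-06. It was -0.18 ± 0.04 under 7FTA, -0.22 ± 0.04 with TNFα and -0.16 ± 0.04 with both, each called with no overlap, although the last was -0.07 (adjusted p = 0.154) when libraries were scaled by their total counts. That scaling moved the median of all genes in this comparison to 0.10. The strand setting of the counting is not given in the sources used here. GALK1, which overlaps ITGB4 on the other strand, held 5584 counts over all libraries, and antisense genes at ITGA6 held 196, 23 and 294, so reads of these pairs could not be told apart if strand was not used.

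The chains of αvβ6 also differed in direction. ITGAV was lower in KO cells, -0.28 ± 0.04 (SE), adjusted p = 3.37e-07, with DMSO, -0.32 ± 0.04 under 7FTA, -0.31 ± 0.04 with TNFα and -0.23 ± 0.04 with both, each called and with no overlap of the library values given above. ITGB6 (chromosome 2, 160099666 to 160200313, minus strand) was at 18.0, 16.2 and 16.7 CPM in WT and 19.0, 20.5 and 18.0 CPM in KO libraries with DMSO, which came close to each other without overlap and did not pass the test, 0.17 ± 0.08 (SE), adjusted p = 0.0789, although they did under upper-quartile scaling (adjusted p = 0.0434) and total-count scaling (0.00871). With TNFα it was at 21.4, 20.3 and 21.6 CPM in WT and 26.8, 28.8 and 30.8 CPM in KO libraries, 0.45 ± 0.08 (SE), adjusted p = 3.18e-06. With both agents it was at 26.5, 23.0 and 21.8 and 31.4, 38.3 and 31.5 CPM, 0.51 ± 0.07 (SE), adjusted p = 8.78e-08. Under 7FTA alone, WT libraries at 21.1, 21.0 and 19.4 and KO libraries at 24.0, 25.3 and 23.1 CPM gave 0.24 ± 0.08 (SE), adjusted p = 0.00802. That last call was lost without WT 7FTA replicate 3 (adjusted p = 0.0651) or KO 7FTA replicate 2 (adjusted p = 0.0501). The log2 change was 0.19 (adjusted p = 0.243) without all 3 libraries of most leukocyte marker counts, which leaves 1 KO 7FTA library that is assumed to vary like the others.

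ITGA3 and ITGB1, the chains of the laminin receptor α3β1, were lower in KO cells with TNFα; the difference between the treatments was tested as an interaction, which did not pass for ITGA3 (-0.16 ± 0.06, adjusted p = 0.168, without 7FTA, and -0.10 ± 0.06, adjusted p = 0.504, under 7FTA) and is given for ITGB1 further on. ITGA3 (chromosome 17, 50055968 to 50090481, plus strand) was at 337 ± 12.4 CPM in WT and 288 ± 9.94 CPM in KO cells with TNFα, -0.22 ± 0.04 (SE), adjusted p = 5.03e-05. With DMSO it was at 319 ± 10.2 and 305 ± 13.0 CPM, with a 95% interval of the log2 difference of -0.15 to 0.02. ITGB1 (chromosome 10, 32900319 to 33005792, minus strand) was at 544, 543 and 560.2 CPM in WT and 471, 509.5 and 493 CPM in KO libraries with TNFα, -0.16 ± 0.03 (SE), adjusted p = 3.41e-05, but under total-count scaling it was -0.07 with adjusted p = 0.0517. With DMSO its libraries were at 444, 437 and 454 and 454, 458 and 435 CPM, interval -0.05 to 0.08, and total-count scaling gave a call at 0.09 with adjusted p = 0.0139. With both agents, ITGA3 at -0.16 ± 0.04 (SE), adjusted p = 0.00199, and ITGB1 at -0.09 ± 0.03 (SE), adjusted p = 0.0118, were called, but both calls were lost without WT TNFα+7FTA replicate 1 (adjusted p = 0.0537 and 0.0697) and under total-count scaling (adjusted p = 0.200 and 0.969, where ITGB1 turned to 0.0017), and that of ITGB1 also without KO TNFα+7FTA replicate 1 (adjusted p = 0.0551), with upper-quartile scaling (0.0796), with no filter (0.0650) and with only the groups compared (0.0654).

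With DMSO the difference of ITGAM between genotypes rests on few counts, a ratio of 0.338 (95% interval 0.123 to 0.814) from 7 against 23 counts over 3 libraries each. The test gave -1.51 ± 0.52 (SE), adjusted p = 0.0162, and the call was lost without WT DMSO replicate 1, WT DMSO replicate 3 or KO DMSO replicate 1 (adjusted p = 0.0780, 0.0655 and 0.0807). At the higher level with TNFα, where the counts allow a firmer statement, the KO to WT ratio was 1.02 (95% interval 0.897 to 1.16) and was not called (adjusted p = 0.889).

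**Figure D4:**
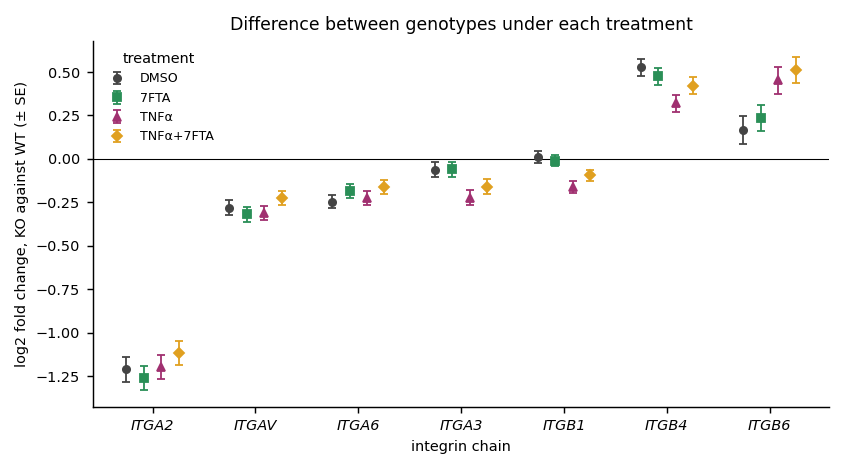
Log2 fold change of KO against WT cells (vertical axis) of the 7 well expressed members under each of the 4 treatments, with each point the fitted value and each error bar ± 1 SE from 3 libraries per group. ITGA2 lies between -1.26 and -1.12, ITGAV and ITGA6 lie below 0 and ITGB4 and ITGB6 above it under each treatment.

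Among genes that work with these receptors, KO cells with DMSO differed in both directions, in a comparison where 48.1% of all genes were called. The shares called of the matrix ligands and of the leukocyte integrin ligands are near that background. Of 8 tested laminin chains, 4 were higher and 1 was lower. LAMB1 was at 0.91 ± 0.06, LAMA3 at 0.41 ± 0.06 and LAMB3 at -0.20 ± 0.04 (SE; median of the list 0.06). Of 14 matrix ligands and latent TGFβ genes, 5 were higher and 3 lower. TGFB1, which αvβ6 and αvβ8 activate, fell from 125 ± 5.28 CPM in WT to 54.8 ± 0.931 CPM in KO cells, -1.18 ± 0.04 (SE), adjusted p = 3.18e-28. LTBP1, which ties latent TGFβ to the matrix, was at 0.929 ± 0.269 CPM in WT and 6.15 ± 0.664 CPM in KO cells, 2.69 ± 0.20 (SE), adjusted p = 2.97e-16. Of 4 hemidesmosome partners, 2 were higher (DST, 0.77, and CD151, 0.10) and 1 lower (COL17A1, -0.41). Of 29 integrin activators and adhesion plaque proteins, 8 were higher and 14 lower, with the β1 binding tensin TNS4 lowest in p at -0.82 ± 0.05, and of 7 tetraspanins, membrane proteins that cluster with integrins, 5 were higher and 1 lower. Of 7 leukocyte integrin ligands, 1 was higher and 2 were lower, and ICAM1 at -0.23 ± 0.12 did not pass (adjusted p = 0.133). Medians of these lists lay between -0.12 and 0.22.

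Whether the TNFα response differed between genotypes was tested as an interaction. Without 7FTA, 1 of 9 tested members was called, against a background of 3.55% of all genes. It was ITGB1, with a difference in TNFα response (KO minus WT) of -0.17 ± 0.05 (SE), adjusted p = 0.0170. This call was lost without WT DMSO replicate 2 (adjusted p = 0.0630), KO DMSO replicate 2 (0.0670), WT TNFα replicate 3 (0.0691) or KO TNFα replicate 1 (0.0844), and with no filter (0.0727). ITGB4 (-0.21 ± 0.07 (SE), adjusted p = 0.107), ITGAM (1.54 ± 0.54 (SE), adjusted p = 0.109) and ITGB6 (0.28 ± 0.11 (SE), adjusted p = 0.180) were not called. ITGAM was chosen for its TNFα response and passed the filter only through the TNFα groups. Its value here rests on 7 counts in the KO DMSO libraries, so nothing is concluded from its test. ITGB4 was called with no filter (adjusted p = 0.0126), with the replicate block (0.00445), with only the groups compared (0.0202), without WT DMSO replicate 3 (0.0372) and without KO TNFα replicate 3 (0.0215). For ITGAV the interval of the difference was -0.15 to 0.09. Under 7FTA the ITGB1 interaction was -0.08 ± 0.05 (SE), adjusted p = 0.412. In that test 0 of 9 members were called by edgeR and by DESeq2 (background 2.56%), and 1 had an unadjusted p under 0.05. Of the laminin chains, the response of LAMA3 was lower in KO cells by 0.39 ± 0.08 without 7FTA (adjusted p = 0.00204).

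Few integrin chains were called for 7FTA, and ITGB6 was the member called in KO cells. In WT cells 0 of 9 tested members were called by edgeR and by DESeq2 (background 2.05%), and 4 had an unadjusted p under 0.05. ITGB2 is among these 4. It passed the filter only through libraries with 7FTA, so its test of 7FTA is no support. The interval of the log2 difference was -0.06 to 0.07 for ITGB1, -0.11 to 0.05 for ITGA6 and -0.07 to 0.10 for ITGAV. In KO cells 1 member was called (background 2.38%). This was ITGB6, from 19.0, 20.5 and 18.0 CPM with DMSO to 24.0, 25.3 and 23.1 CPM with 7FTA, 0.34 ± 0.08 (SE), adjusted p = 0.00613. The call was lost without KO DMSO replicate 3 (adjusted p = 0.0761), without KO 7FTA replicate 2 (0.0582) or without the 3 libraries of most leukocyte marker counts (0.285), where 1 KO 7FTA library remained and the log2 change was 0.33. In WT cells ITGB6 was at 18.0, 16.2 and 16.7 and 21.1, 21.0 and 19.4 CPM, 0.27 ± 0.08 (SE), adjusted p = 0.0638, and was called with no filter (0.0345), with the replicate block (0.0344) and with only the groups compared (0.0362). ITGAM in KO cells had a ratio of 3.37 (95% interval 1.44 to 9.10) with 7FTA against DMSO and was not called (adjusted p = 0.0540, or 0.0430 with the replicate block). Added to TNFα, 7FTA gave 1 call in WT cells (background 5.54%), ITGB1 from 544, 543 and 560.2 to 515, 493 and 508 CPM, -0.12 ± 0.03 (SE), adjusted p = 0.0141. It was lost without WT TNFα replicate 3 (adjusted p = 0.0814) or WT TNFα+7FTA replicate 2 (0.0854). In KO cells 1 member was called (background 7.52%), ITGB6 from 26.8, 28.8 and 30.8 to 31.4, 38.3 and 31.5 CPM, 0.23 ± 0.07 (SE), adjusted p = 0.0372, and lost without KO TNFα replicate 1 (adjusted p = 0.230), KO TNFα replicate 2 (0.0910) or KO TNFα+7FTA replicate 2 (0.351), with DESeq2 (0.0606) and with only the groups compared (0.103). ITGB6 libraries with 7FTA lay above those without it in each of the 4 pairs of groups, in WT cells with TNFα by 21.8 against 21.6 CPM. The share of all genes with this pattern was not computed, so it is a description and adds no support to the calls. ITGAM with both agents against TNFα alone had a ratio of 1.11 (95% interval 0.978 to 1.27) in WT and 1.03 (95% interval 0.912 to 1.16) in KO cells. For the difference of the 7FTA effect between genotypes, no member was called: without TNFα 0 of 9 (background 0%) and with TNFα 0 of 9 (background 0.064%), by edgeR and by DESeq2, with 0 and 0 at an unadjusted p under 0.05.

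Of the ligands and partner genes, 7FTA added to TNFα went with lower ICAM1, -0.31 ± 0.05 in WT and -0.30 ± 0.05 in KO cells, and lower C3, -0.86 ± 0.25 and -0.72 ± 0.22 (SE, each called). LIMS2, an adaptor of the adhesion plaque, was higher at 0.50 ± 0.08 and 0.39 ± 0.07, and COL17A1 at 0.17 ± 0.04 and 0.23 ± 0.04. Without TNFα, TNS4 fell by 0.21 in WT and 0.29 in KO cells with 7FTA. In all, 7FTA against DMSO in WT cells gave 1 higher and 0 lower of 6 further integrins, 0 higher and 0 lower of 8 laminin chains, 0 higher and 1 lower of 14 matrix ligands, 0 higher and 0 lower of 7 leukocyte integrin ligands, 0 higher and 2 lower of 29 activators and plaque proteins, 0 higher and 0 lower of 4 hemidesmosome partners and 1 higher and 0 lower of 7 tetraspanins. In KO cells it gave 1 higher and 0 lower of 6 further integrins, 0 higher and 0 lower of 8 laminin chains, 0 higher and 0 lower of 14 matrix ligands, 0 higher and 0 lower of 7 leukocyte integrin ligands, 1 higher and 2 lower of 29 activators and plaque proteins, 0 higher and 0 lower of 4 hemidesmosome partners and 0 higher and 0 lower of 7 tetraspanins.

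Of 16 further integrin genes, 6 passed the filter: ITGB5, ITGA1, ITGB7, ITGB8, ITGAE and ITGA7. ITGB7, the chain of the gut homing integrins α4β7 and αEβ7, rose with 7FTA in each of the 4 comparisons of 7FTA with its control, the only one of these 6 genes and the members to be called in all 4. Its libraries were at 5.33, 4.38 and 4.97 CPM with DMSO and 8.89, 9.94 and 8.98 CPM with 7FTA in WT cells. In KO cells they were at 3.79, 2.87 and 3.90 and 7.55, 5.71 and 6.72 CPM. The log2 change was 0.90 ± 0.12 (SE), adjusted p = 7.31e-07, in WT and 0.90 ± 0.13 (SE), adjusted p = 8.99e-06, in KO cells, and with TNFα it was 0.90 ± 0.12 and 0.90 ± 0.13. ITGB7 was also lower in KO cells, -0.48 ± 0.14 with DMSO (adjusted p = 0.00404; 0.0527 without KO DMSO replicate 2) and -0.67 ± 0.14 with TNFα (adjusted p = 5.29e-05). Its partner ITGA4 had at most 1 count in a library, and ITGAE, the partner in αEβ7, was at 14.6 ± 2.83 CPM in WT cells with DMSO and was not called for 7FTA or genotype, although KO against WT under 7FTA (0.21) passed with total-count scaling (adjusted p = 0.0348), no filter (0.0416) or only the groups compared (0.0275). ITGB8, another αv partner, was lower in KO cells with DMSO, -0.23 ± 0.08 (SE), adjusted p = 0.0173, a call lost without KO DMSO replicate 2 or 3 (adjusted p = 0.0549 and 0.0511) and under total-count scaling (0.121). The αv partner ITGB5 was lower in KO cells under each treatment, -0.30 ± 0.04 with DMSO to -0.41 ± 0.04 with TNFα. The collagen receptor chain ITGA1, unlike ITGA2, was higher, 0.32 ± 0.07 with DMSO (adjusted p = 4.84e-05), at 1.57 CPM per kb in KO cells against 9.17 for ITGA2, or 8.23 against 20.2 over coding exons alone. With both agents against TNFα alone, ITGA1 fell by 0.44 ± 0.07 in WT and by 0.26 ± 0.06 in KO cells, the latter not called without KO TNFα replicate 2 (adjusted p = 0.0775). ITGB8 fell by 0.30 ± 0.07 in WT and by 0.25 ± 0.07 in KO cells, lost without WT TNFα replicate 3 (adjusted p = 0.0707) and, in KO cells, without KO TNFα replicate 2 or 3 or KO TNFα+7FTA replicate 1 (adjusted p = 0.0942, 0.0632 and 0.0920). ITGA7, a muscle laminin receptor chain, was at 0.265 to 0.778 CPM over the groups. The remaining 10 of the 16 genes did not pass the filter, ITGB3 with 0 counts in all libraries.

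**Figure D5:**
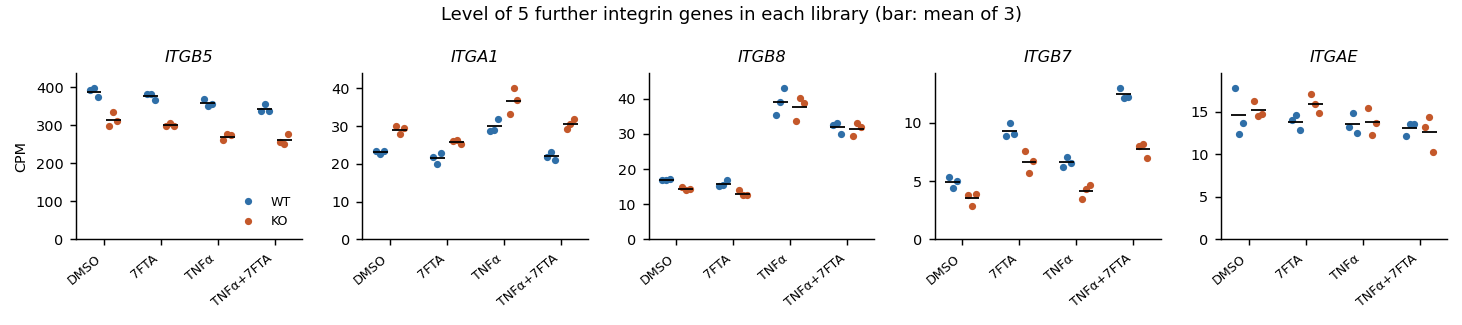
CPM (vertical axis, from 0, on a scale of its own for each gene) of ITGB5, ITGA1, ITGB8, ITGB7 and ITGAE by treatment (horizontal axis) in WT and KO cells, with each point 1 library and each bar the mean of 3. ITGB7 is higher with 7FTA in both genotypes, with and without TNFα, and ITGB8 is higher in every library with TNFα.

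The genes whose log2 CPM followed that of 2 members most closely were listed by Pearson's r over the 24 libraries, among 10834 genes, as a description. For ITGAM they were CCDC9B (r = 0.983), IL6ST (r = 0.982), SMAD3 (r = 0.982), TNIP1 (r = 0.982) and ACSL5 (r = 0.981). The points share libraries and groups, and for ITGAM the 12 libraries with TNFα form a set apart from the other 12. For ITGB6 they included CASP4 (r = 0.947), TOB1 (r = 0.924), RNF13 (r = 0.914) and FERMT1 (r = 0.914). FERMT1 encodes kindlin-1, an activator of β integrins in epithelia.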

How the data were processed

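Raw counts per gene were deposited by the authors as 1 table with a column for each of the 24 libraries, per the file headers, and are whole numbers. Named in the submitters' processing notes are the build GRCh38 and the tools featureCounts 1.6.4, STAR 2.6.1d and DESeq2 1.20.0; which tool served which step, the annotation and the strand setting are not given in the sources used here. Groups and replicate numbers come from the sample titles. The members and the gene lists were chosen with earlier results of these data known.

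With edgeR 4.0.16 (R 4.3.3), genes with low counts were removed by filterByExpr (minimum count 10) on the 8 groups, which left 14059 of 60623 genes. TMM factors were 0.944 to 1.05. All 24 libraries entered 1 quasi-likelihood fit with a coefficient for each of the 8 groups, contrasts were tested on both sides, and a gene was called at a Benjamini-Hochberg adjusted p under 0.05 over all tested genes. The SE was taken as the size of the log2 change over the root of its F statistic. CPM use the TMM-scaled library size. Lengths, positions and overlaps come from GENCODE 29 on GRCh38, and promoters from RefSeq on GRCh38.p14. The test was checked on simulated data. Intervals of ratios are exact and cover counting error only. Named genes were all members, every other integrin gene that passed the filter, at most 4 genes of smallest p per list and comparison, GPRC5A, and the 5 genes of highest r with ITGAM and ITGB6 among genes of mean log2 CPM of at least 1; some genes under this rule are not reported here. Alternatives were DESeq2 1.42.0, upper-quartile scaling, no filter, only the groups compared, a replicate block and leaving out each library, and, chosen after seeing the data, total-count scaling, leaving out 3 libraries and coding-exon length. No pair of libraries of a group was alike within sampling noise (chi-square per degree of freedom at least 2.07).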

Additional observations from a re-analysis of the deposited data

Results flagged for a closer look

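The TNFα response of ITGB1 differed between genotypes by a test of the difference itself, a call lost in 5 of 18 alternatives (adjusted p 0.0630 to 0.0844 in those). The interaction was -0.173 on the log2 scale, with a TNFα response of 0.30 in WT and 0.13 in KO cells, and WT and KO libraries overlapped with DMSO but not with TNFα. Under 7FTA the same interaction was -0.08 ± 0.05 (SE) and was not called.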

How the results depend on the processing

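Of 1540 values of the members recomputed under the alternatives, 1490 kept their side of the threshold. Those of them that were called also kept their direction. Values that were not called could change sign and still count among the 1490. ITGB2 for 7FTA against DMSO in WT cells, for example, went from 2.99 to as low as -0.63. ITGB1, KO against WT with both agents, turned from -0.09 to 0.0017 under total-count scaling, and ITGB2 with both agents against 7FTA in WT cells turned from -2.66 to 0.96 without WT 7FTA replicate 3 (over all libraries left out singly, -3.43 to 0.96). The number of members called moved as follows, and the cause was not tested except that fewer libraries leave less precision. With the replicate block it was 1 in place of 0 for 7FTA in WT cells. It was 2 in place of 1 for 7FTA in KO cells and for both agents against TNFα in KO cells. For the genotype by TNFα interaction without 7FTA it was also 2 in place of 1. Mean correlations of same-numbered libraries lay between -0.0298 and 0.0650 over 28 pairs of groups. These values show no clear pairing by number, but with 3 libraries per group they cannot exclude one. With only the groups compared it was 1 for 7FTA in WT cells, 0 for both agents against TNFα in KO cells (0 with DESeq2 too) and 2 for that interaction. With no filter it was 3 for 7FTA in WT cells, with upper-quartile scaling 2 for both agents against TNFα in WT cells, with total-count scaling 4 in place of 7 for KO against WT with both agents, and without the 3 libraries of most leukocyte marker counts 0 for 7FTA in KO cells. Leaving out 1 library at a time gave 0 to 2 for both agents against TNFα in WT cells, 0 to 1 for it and for 7FTA in KO cells, and 0 to 2 for the interaction.

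Counts over all genes moved as well. Without the 3 libraries they were 4519 in place of 6958 for KO against WT under 7FTA, 183 in place of 288 and 60 in place of 335 for 7FTA in WT and KO cells, 2616 in place of 4388 for both agents against 7FTA in KO cells, and 73 in place of 360 for the genotype by TNFα interaction under 7FTA. This setting leaves 1 KO 7FTA library and 2 WT 7FTA libraries, so its tests rest on fewer samples, and the lone library is assumed to vary like the other groups. With only the groups compared, 659 in place of 1057 were called for both agents against TNFα in KO cells. Leaving out single libraries (WT 7FTA replicate 1, KO DMSO replicate 2, WT 7FTA replicate 3 and WT TNFα+7FTA replicate 3) gave as few as 182 of 288, 196 of 335, 224 of 360 and 501 of 779 for both agents against TNFα in WT cells, and 0 to 24 of 9 for the genotype by 7FTA interaction with TNFα over all alternatives. The planned length from RefSeq proteins was not run, and coding-exon length took its place. At this depth ITGB2 and ITGA5, and ITGAM without TNFα, are near the limit of detection.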
